A study of Homo sapiens with 8 samples.

Results

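Trimethylation of lysine 4 on histone H3 (H3K4me3) was compared between HT and SUDHL6, established human lines grown from diffuse large B cell lymphoma, a cancer of mature B cells. The regions described are all islands, that is, stretches of enriched ChIP-seq signal, in the deposited H3K4me3 list of each line on chromosomes 1 to 22. They number 10593 in HT and 13281 in SUDHL6, or 23874 of the 24650 H3K4me3 islands on all chromosomes and of the 58757 islands in the 6 lists of the study. That study also profiled H3K27me3 and the histone methyltransferase EZH2 in the same lines. Both lines were grown untreated in RPMI GlutaMAX medium with fetal bovine serum and antibiotics, and the labels give no genotype. Each line and antibody had 1 library, so no spread between replicates exists and no test between the lines was made. Exact (Clopper-Pearson) 95% intervals cover counting error only. The read depth of the libraries is unknown here, and a locus without an island may still carry the mark below the calling threshold.

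H3K4me3 is laid down around transcription start sites, most strongly at CpG-rich promoters of genes that are transcribed or ready to be. It typically forms a narrow domain flanking the start site, and broader domains are known at genes that define a cell's identity. H3K27me3, written by EZH2 within Polycomb repressive complex 2, marks repressed chromatin, and promoters that carry both marks are called bivalent. In germinal centre B cells, from which many of these lymphomas derive, EZH2 holds promoters of differentiation genes in such a repressed or bivalent state. Gene positions on hg19, the build of the lists, were not used here, so islands are given by position and not by gene. The lists hold positions and a score and no sequence, and no sequence is printed.

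The HT islands covered 24.9 Mb and the SUDHL6 islands 32.2 Mb, with the same median width of 2100 bp in both lists. The lists differed in their widest islands. Islands of 5 kb or wider made up 3.33% of the HT list (353 islands) and 5.08% of the SUDHL6 list (675 islands). The widest island was 27.75 kb in HT and 48.75 kb in SUDHL6. Each island carries the authors' own score, which was used only to rank islands within their own list. Divided by width, it had a median of 34.3 per kb in HT and 32.0 per kb in SUDHL6, and these values were not compared as levels.

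Islands of both lines were met at the high end of each score ranking and islands of 1 line at the low end. Overlap by at least 1 bp with an island of the other line was found for 7889 HT islands (74.5%, 73.6 to 75.3%) and 7867 SUDHL6 islands (59.2%, 58.4 to 60.1%). The numbers from the 2 sides were close, so the lower SUDHL6 share went with its longer list. In the lowest 10% of the HT list by score, 18.9% (16.6 to 21.3%) overlapped a SUDHL6 island, against 96.4% (95.1 to 97.4%) in the highest 10%. In SUDHL6 the same shares were 9.82% (8.21 to 11.6%) and 90.5% (88.8 to 92.0%). The rise was not unbroken at the top: in SUDHL6 the share peaked at 92.9% (91.4 to 94.2%) in the next-highest 10% and was lower among the islands of the highest scores.

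**Figure D1:**
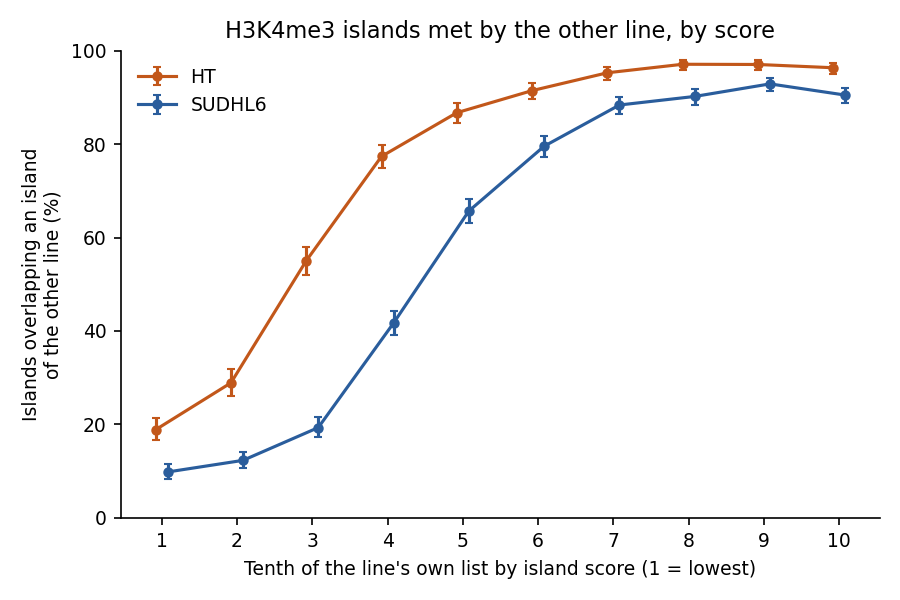
Share of H3K4me3 islands that overlap an island of the other line (y axis, percent, with exact 95% intervals) by class of 10% of the island's own list by score (x axis, lowest to highest), for HT and SUDHL6. The HT share rises from 18.9% to 96.4% and the SUDHL6 share from 9.82% to 90.5%, with HT above SUDHL6 in each class.

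Dense and mid-sized islands were the most often shared. In the 25% of islands with the lowest score per kb, the overlap was 31.5% (29.8 to 33.3%) in HT and 6.97% (6.12 to 7.91%) in SUDHL6. By width, HT islands below 1 kb overlapped a SUDHL6 island in 53.1% (49.6 to 56.6%) of cases, and those from 3 to 5 kb in 87.8% (86.3 to 89.2%). At 10 kb or wider the HT share was 80.4% (66.9 to 90.2%) over 51 islands.

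Overlapping islands were joined into 7795 reciprocal best pairs, in which each island shares more bases with its partner than with any other island of that line. At 7620 of these pairs the locus held 1 island in each line. Paired islands covered much of the same ground but seldom shared both edges. The median pair had 60% of its combined length in both islands, and in 4877 pairs (62.6%) the narrower island lay wholly inside the wider one. The same start was found in 808 pairs, the same end in 810, and both in 93 (1.19%). The median shift was 450 bp at either edge, and the median signed shift was 0, so the islands of 1 line were not displaced along the chromosome relative to the other. Start and end both lay within 300 bp, or 2 steps of the 150 bp grid on which islands were called, in 1423 pairs (18.3%). The smallest overlap, 150 bp, was found in 30 pairs.

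Within the pairs, the order of the islands by score per kb was only partly the same in both lines. Score per kb was turned into a percentile among the 7795 paired islands of each line, so that both ranked lists had the same length. The Spearman correlation across pairs was 0.39 for score per kb, 0.38 for width and 0.60 for the score of the whole island, each over 7795 pairs of the same 2 libraries. The median pair differed by 20.4 percentile points. HT ranked higher by 25 points or more in 1636 pairs (21.0% of all pairs) and SUDHL6 in 1614 (20.7%), together 3250 pairs (41.7%). Ranking among pairs makes the mean percentile the same in both lines by construction. It does not fix how many pairs pass 25 points in each direction. When percentiles were taken in each whole list instead, HT ranked higher in 10.3% of pairs and SUDHL6 in 23.3%. The split between the lines therefore depended on which islands were ranked.

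Islands that ranked at the very top in 1 line were seldom at the bottom in the other. Of the 780 pairs in the highest 10% of HT, 182 were also in the highest 10% of SUDHL6 and 20 were in its lowest 10%. The reverse, the lowest 10% in HT with the highest 10% in SUDHL6, held 15 pairs. Both islands were in the lowest 10% in 321 pairs, more than the 182 at the top. The ranks were closest for wide islands. Where the narrower island of a pair was below 1 kb, this correlation was 0.03 and 58.0% of 755 pairs differed by 25 points or more. Where it was 3 kb or wider, it was 0.61 and 31.7% of 1056 pairs did.

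**Figure D2:**
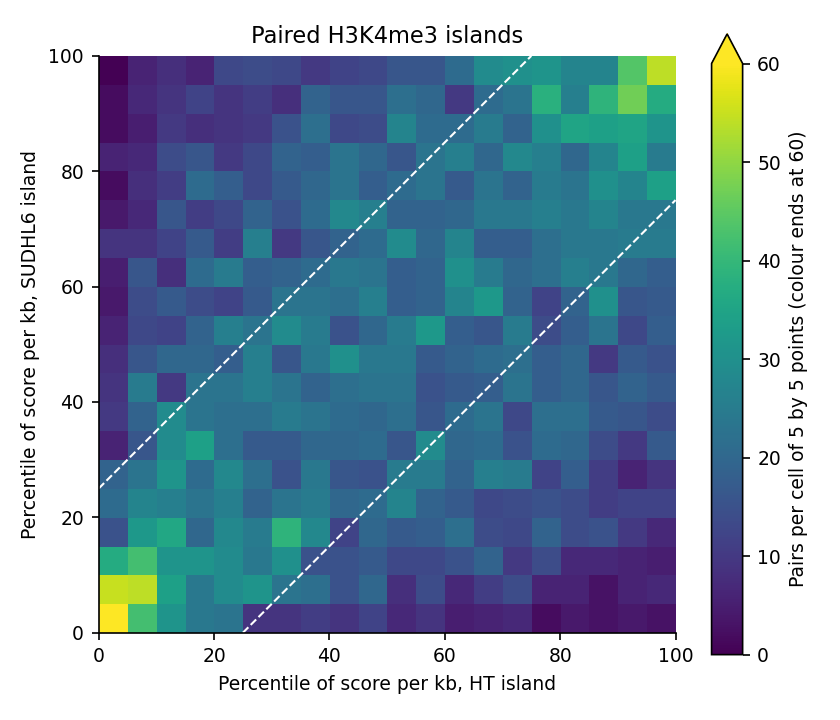
Percentile of score per kb of each of the 7795 paired H3K4me3 islands in HT (x axis) and in SUDHL6 (y axis), shown as the number of pairs per square of the grid, with the colour scale capped. Pairs spread widely around the diagonal, with a crowded corner at the low end of both lines, and 41.7% of them lie 25 points or more from equal rank.

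Widths were balanced between the lines. The median width of a paired island was 2250 bp in both, HT was wider in 3694 pairs, SUDHL6 in 3654, and the widths were equal in 447. The HT island was 2 or more times as wide in 798 pairs (10.2%) and the SUDHL6 island in 880 (11.3%), together 1678 (21.5%). The rank difference and the log2 width ratio ran against each other (Spearman correlation -0.48 across the 7795 pairs), and width divides the score in the first of these measures. Of the 1636 pairs with the higher rank in HT, the SUDHL6 island was 2 or more times as wide in 454 and the HT island in 48.

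Single pairs show what these differences look like. The largest rank difference towards HT among pairs with both islands of 1 kb or wider lay on chromosome 10. The HT island there (33246001 to 33247950, hg19) had a score of 134 over 1.95 kb and stood at percentile 97.1. The SUDHL6 island (33246001 to 33248700) had the same start, a score of 52 over 2.7 kb and percentile 2.40. The HT island was thus narrower and ranked near the top, and its partner near the bottom.

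Towards SUDHL6, the largest difference lay on chromosome 7. The HT island from 64539451 to 64542000 stood at percentile 5.50 and the SUDHL6 island from 64540951 to 64542150 at 98.1. A pair on chromosome 6 was the highest-ranked of the SUDHL6 pairs that did not come with a narrower SUDHL6 island. The SUDHL6 island (43736701 to 43743000) was 6.3 kb wide with a score of 519 and percentile 98.1, and the HT island (43737151 to 43739850) was 2.7 kb wide with a score of 62 and percentile 7.63. At this locus HT had 2 H3K27me3 islands and 1 EZH2 island over its H3K4me3 island, and SUDHL6 had 1 H3K27me3 island and no EZH2 island. None of the other 9 pairs with the largest rank differences in either direction touched an H3K27me3 or EZH2 island of either line. Most pairs did not: of all 7795, 7409 had H3K27me3 in neither line and 6928 had EZH2 in neither line.

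The largest width ratio towards HT was on chromosome 11, where an HT island of 17.25 kb (118120351 to 118137600) met a SUDHL6 island of 1.05 kb (118122301 to 118123350), a ratio of 16.4. The largest towards SUDHL6 was on chromosome 2, where a SUDHL6 island of 3.0 kb (22126351 to 22129350) met an HT island of 0.15 kb, a ratio of 20. An island of 150 bp is a single calling window. The lowest score in either list was 12, so such an island cannot have less than 80 per kb, and its high rank follows from that floor. This lowest value stood at percentile 99.2 in HT and 98.5 in SUDHL6. The pair with the highest sum of percentiles was not of that kind. It lay on chromosome 2 from 33141151 to 33141750 with the same bounds in both lines, 600 bp wide, and scores of 114 in HT and 131 in SUDHL6. The next pairs by this sum, on chromosome 1 (from 205204951), chromosome 4 and chromosome 21, each held an island of 150 bp in at least 1 line.

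A few islands faced several islands of the other line. In HT 85 islands overlapped 2 or more SUDHL6 islands, and in SUDHL6 99 overlapped 2 or more HT islands. These were wide, with medians of 4950 and 5850 bp. In HT 3 islands met 3 SUDHL6 islands each, and the widest of them was 18.45 kb on chromosome 10 (75528151 to 75546600). In SUDHL6 the most divided was an island of 15.15 kb on chromosome 1 (149006101 to 149021250), which met 4 HT islands.

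Some differences at the pairs lay in long chromosome segments, although most pairs that differed lay outside them. Of 205 windows of 10 Mb with at least 15 pairs, the median rank difference of score per kb was below -10 points in 30 and above 10 in 26. Across 140 neighbouring windows the Spearman correlation was 0.31 for the rank difference and 0.51 for the log2 width ratio. Chromosome 6 showed such a change of level over many windows. In the 6 windows from 0 to 60 Mb the median log2 width, HT over SUDHL6, lay between -0.96 and -0.60, and in the 8 windows compared from 70 to 160 Mb between -0.19 and 0.38. On chromosome 4 the value went from -0.93 between 40 and 50 Mb to 0.67 between 50 and 60 Mb. The segments below were chosen after these windows were seen, and their values are descriptions.

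**Figure D3:**
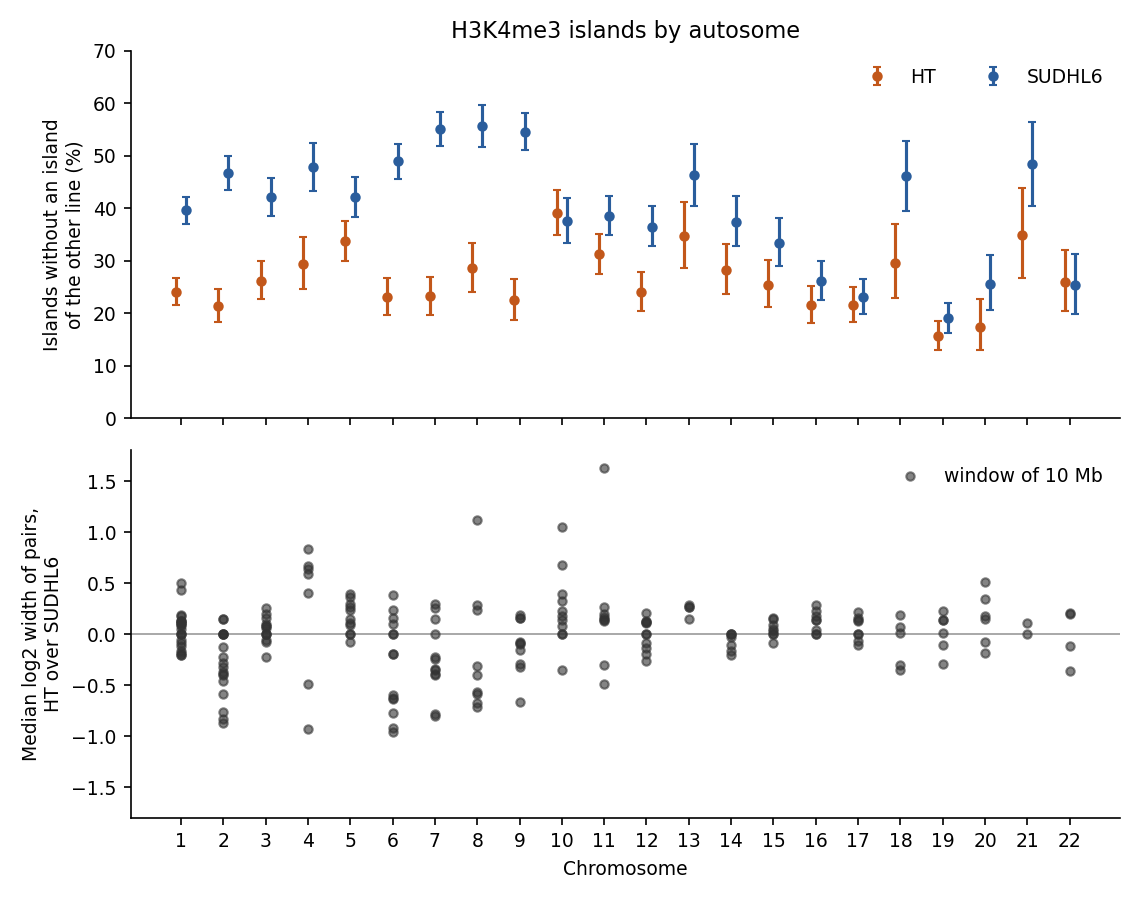
Top, share of H3K4me3 islands without an island of the other line (percent, exact 95% intervals) by autosome for HT and SUDHL6; bottom, median log2 width of paired islands, HT over SUDHL6, where each point is 1 window of 10 Mb with at least 15 pairs. SUDHL6 has the higher share on 20 of 22 autosomes, and windows of chromosomes 4, 6, 8, 10 and 11 spread far more than those of chromosomes 12 to 17.

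From 0 to 60 Mb of chromosome 6, the SUDHL6 island was wider in 214 of 250 pairs and the HT island in 29. The median widths there were 3750 bp in SUDHL6 and 2250 bp in HT. SUDHL6 islands were 2 or more times as wide in 41.2% of these pairs, against 11.3% of all pairs, and HT islands in 0.8%. By percentile of the whole island's score, SUDHL6 ranked higher in 242 of the 250. Beyond 60 Mb the median width was 2250 bp in both lines, and HT was wider in 96 of 189 pairs.

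The paired H3K27me3 islands of the same segment moved the same way, as did the few EZH2 pairs. From 0 to 60 Mb, SUDHL6 was wider in 154 of 171 H3K27me3 pairs (median log2 width -1.45) and in 16 of 17 EZH2 pairs. Beyond 60 Mb, HT was wider in 19 of 22 H3K27me3 pairs and in 5 of 5 EZH2 pairs. On chromosome 7, SUDHL6 was wider in 222 of 308 H3K4me3 pairs from 0 to 110 Mb and in 38 of 106 from 110 to 160 Mb. For H3K27me3 on the same chromosome, SUDHL6 was wider in 84 of 105 pairs and then in 15 of 42.

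Towards HT, the segments on chromosomes 10 and 11 stood out. From 110 to 120 Mb of chromosome 11, HT was wider in 34 of 37 H3K4me3 pairs, with median widths of 6600 bp in HT and 2100 bp in SUDHL6. In this segment 43 of 47 H3K27me3 pairs were wider in HT, by a median log2 width of 2.66. From 60 to 80 Mb of chromosome 10, HT was wider in 43 of 58 H3K4me3 pairs and in 42 of 45 H3K27me3 pairs. HT islands without a SUDHL6 island were 99 of 158 there (62.7%), against 25.5% of the whole HT list.

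Chromosomes 4 and 8 held segments of both directions. On chromosome 4, SUDHL6 was wider in 61 of 80 pairs up to 50 Mb, and HT in 122 of 168 beyond it. On chromosome 8, HT was wider in 38 of 51 pairs from 20 to 40 Mb, and SUDHL6 in 112 of 144 from 40 to 130 Mb. SUDHL6 was also wider in 118 of 165 pairs from 20 to 80 Mb of chromosome 2, where the H3K27me3 pairs did not move with them (HT wider in 15 of 28). The 9 segments that differed held 1261 pairs, or 16.2% of all pairs. They held 286 of the 880 pairs with the SUDHL6 island 2 or more times as wide, and 131 of the 798 with the HT island so. In the other 6534 pairs the shares were 9.09% for SUDHL6 and 10.2% for HT. The HT share inside the segments, 10.4%, pools segments of both directions. It was 70.3% in the chromosome 11 segment, 46.6% in that of chromosome 10 and 41.2% from 20 to 40 Mb of chromosome 8. Beyond 50 Mb of chromosome 4 it was 24.4%. In the segments where SUDHL6 was mostly wider, it lay between 0 and 3.03%. Copy number was not measured here, so segments with more DNA in 1 line and segments with more of the mark cannot be told apart.

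Islands without an island of the other line, called single-line islands here, numbered 2704 in HT (5.13 Mb) and 5414 in SUDHL6 (11.7 Mb). They were narrower and of lower score than the islands with an overlap. Their median width was 1650 bp in HT and 1800 bp in SUDHL6, against 2250 bp for overlapping islands of either line. Their median score percentile in the own list was 16.2 in HT and 23.5 in SUDHL6, against 61.5 and 67.8 for overlapping islands. The lowest 25% of the list by score held 69.0% (67.2 to 70.7%) of single-line HT islands and 54.6% (53.2 to 55.9%) of those of SUDHL6. The highest 25% held 86 (3.18%, 2.55 to 3.91%) and 286 (5.28%, 4.70 to 5.91%). By score per kb the order of the lines in this class turned, with 4.73% in HT and 3.99% in SUDHL6.

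Most single-line islands lay more than 10 kb from any island of the other line. The median gap, counted as the bases between nearest edges, was 39.75 kb in HT and 76.95 kb in SUDHL6. The median gap from the same islands to the next island of their own line was 39.0 and 40.8 kb. Within 10 kb of an island of the other line lay 20.8% of single-line HT islands and 13.1% of those of SUDHL6. With both lists held to 10593 islands, the median gap was 51 kb in HT and 64.9 kb in SUDHL6. The lines were thus closer in this measure at equal list length.

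**Figure D4:**
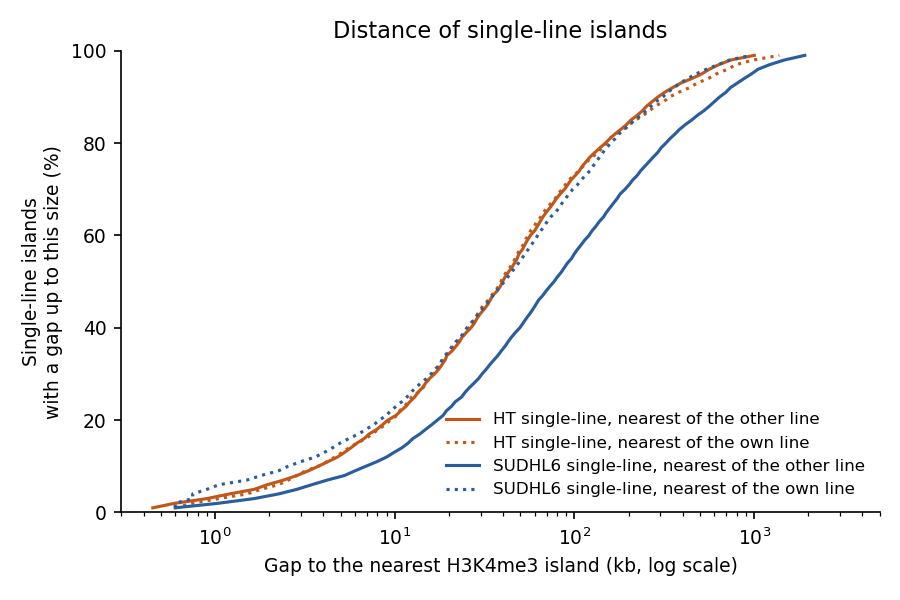
Cumulative share of single-line H3K4me3 islands (y axis, percent) by distance to the nearest island of the other line and of the own line (x axis, kb, log scale), for HT and SUDHL6. The HT curve to the other line lies close to its own-line curve, with medians of 39.75 and 39.0 kb, whereas in SUDHL6 the medians are 76.95 and 40.8 kb.

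Less than 1 kb from an island of the other line lay 93 single-line islands in HT (3.44%) and 103 in SUDHL6 (1.90%). Gaps of more than 1 Mb were found for 28 HT and 248 SUDHL6 islands. The farthest HT island, on chromosome 13 from 86295301 to 86296350, was 2.43 Mb from any SUDHL6 island and stood at score percentile 5.62. Another of the 5 farthest in HT was of another kind. It lay on chromosome 13 from 88323151 to 88327950, was 4.8 kb wide with a score of 198 (percentile 97.2), lay 1.42 Mb from SUDHL6 H3K4me3, and HT EZH2 covered 62.5% of it.

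Single-line islands of SUDHL6 came in runs more often than those of HT, by less at equal list length. A run is a set of neighbouring islands of 1 line with no H3K4me3 island of the other line between them, and this measure was added after seeing the data. In HT 59.5% of single-line islands stood alone, and in SUDHL6 31.8%. Runs of 5 or more islands held 143 HT islands (5.29%) and 1318 SUDHL6 islands (24.3%). With both lists held to 10593 islands, 52.2% (50.4 to 54.0%) stood alone in HT and 42.3% (40.5 to 44.1%) in SUDHL6, and runs of 5 or more held 9.05% (8.05 to 10.1%) and 12.6% (11.5 to 13.9%). The longest run was nevertheless in HT, with 26 islands from 66887251 to 68954400 of chromosome 10, within the segment described above. Its islands had a median score percentile of 20.6 and 0 of them were in the highest 25% of the list. Over the same 2067 kb HT had 3 H3K27me3 and 2 EZH2 islands, and SUDHL6 had 0 of either. That SUDHL6 had no H3K4me3 island there follows from the definition of a run. The longest runs of SUDHL6 held 17 islands each, on chromosome 5 from 123004501 to 125425200 and on chromosome 6 from 20564251 to 24029700. In the former, HT had 7 H3K27me3 islands and SUDHL6 had 0, and in the latter HT had 1 and SUDHL6 had 4.

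By chromosome, the SUDHL6 list had the higher share of single-line islands on 20 of 22 autosomes. The exceptions were chromosome 10 (39.1% in HT and 37.6% in SUDHL6) and chromosome 22 (25.9% and 25.3%). Chromosome 19 had the lowest share of each line, 111 of 710 islands (15.6%) in HT and 142 of 747 in SUDHL6. Chromosome 7 had 23.2% single-line islands in HT and 55.1% in SUDHL6, and from 0 to 110 Mb the SUDHL6 value was 58.9%. From 40 to 130 Mb of chromosome 8, 67.3% of SUDHL6 islands were single-line.

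The single-line islands of highest score were wide and not dense. The highest in HT lay on chromosome 16 from 34003651 to 34017450, 13.8 kb wide with a score of 510, and its score per kb stood at percentile 57.9 of the list. The highest in SUDHL6 lay on chromosome 21 from 10108801 to 10154700, 45.9 kb wide with a score of 1300, with its score per kb at percentile 42.6. Neither touched an H3K27me3 or EZH2 island of either line. Such islands often lay beside large stretches with no island. The longest stretch without an island of any of the 6 lists was found on each autosome, also as an addition after seeing the data. Within 2 Mb of it lay 20 of the 86 single-line HT islands in the highest 25% by score (23.3%, 14.8 to 33.6%) and 55 of the 286 of SUDHL6 (19.2%, 14.8 to 24.3%). For overlapping islands of the same score range, the shares were 2.83% (2.22 to 3.55%) and 2.89% (2.32 to 3.55%). Of single-line islands of 10 kb or wider, 5 of 10 in HT (18.7 to 81.3%) and 20 of 36 in SUDHL6 (38.1 to 72.1%) lay there. Overlapping islands of that width lay there in 8 of 41 cases in HT (8.82 to 34.9%) and 11 of 57 in SUDHL6 (10.0 to 31.9%). The intervals overlap in HT and not in SUDHL6. Within 5 Mb lay 33.7% (HT) and 27.3% (SUDHL6) of single-line islands in the highest 25% by score. For overlapping islands of that range the shares were 7.63% and 7.93%. Of single-line islands of 10 kb or wider, 6 of 10 and 27 of 36 lay within 5 Mb, against 15 of 41 and 22 of 57 overlapping islands of that width. No single-line island was checked against input, so enrichment at these islands is not established.

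Outside the 2 Mb margins of these stretches, the 4 single-line HT islands of highest score were 8.55 to 15.9 kb wide. They lay within 10 kb of SUDHL6 H3K4me3 and had scores per kb at percentiles 18.2 to 51.5. The fifth lay on chromosome 18 from 3447601 to 3453300. It was 5.7 kb wide with a score of 251, had a score per kb at percentile 74.6, and lay 149.7 kb from SUDHL6 H3K4me3. In SUDHL6 the 4 highest were 16.95 to 39.3 kb wide with scores per kb at percentiles 38.3 to 59.2. The widest of them, on chromosome 19, lay under EZH2 of both lines, with SUDHL6 H3K27me3 over 98.5% of it and no HT H3K27me3. The fifth, a denser island, spanned 37133701 to 37141350 of chromosome 6 (7.65 kb), with a score of 568 and a score per kb at percentile 97.6. There HT had no H3K4me3 island within 83.85 kb, HT H3K27me3 covered 23.5% of the SUDHL6 island, and HT EZH2 covered 58.8% of it. These 2 islands, each the fifth by score outside the 2 Mb margins, were singled out after their values were seen. Among the 4 highest of each line, those on chromosome 9 lay from 68684401 to 69698250, and the longest empty stretch there ended at 65620650. The HT island on chromosome 2 began at 91891351, and the stretch used there ran from 77577301 to 83318100. On chromosome 12 the SUDHL6 island began at 38079901, and the stretch used ran from 16099951 to 19591950. Only the longest stretch of each autosome was used, so islands outside its margins may lie beside other empty stretches.

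The H3K27me3 and EZH2 lists are readouts that the choice of islands did not use. Over the whole lists, single-line H3K4me3 islands carried H3K27me3 of the other line more often than paired islands did, but in the lowest 25% by score their share was below that of overlapping islands, with intervals that overlap in HT and not in SUDHL6. SUDHL6 single-line islands overlapped HT H3K27me3 in 6.80% (6.14 to 7.50%) of cases, and paired SUDHL6 islands in 3.03% (2.66 to 3.43%). HT single-line islands overlapped SUDHL6 H3K27me3 in 4.88% (4.10 to 5.76%), and paired HT islands in 2.51% (2.18 to 2.89%). For H3K27me3 of the own line, over the whole lists, the shares were 2.44% for both classes in SUDHL6, and 3.40% (2.75 to 4.16%) for single-line and 3.09% (2.72 to 3.50%) for paired islands in HT. By score the own-line shares parted as well. In the highest 25% of SUDHL6, own-line H3K27me3 lay on 5.59% (3.23 to 8.93%) of single-line and 2.26% (1.76 to 2.85%) of overlapping islands. In the lowest 25% of HT the order was the other way, with 2.73% (2.04 to 3.58%) and 8.76% (6.83 to 11.03%).

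The share of single-line islands with H3K27me3 of the other line rose with score in SUDHL6, and in HT it was higher in the upper 3 classes of 25% than in the lowest. HT H3K27me3 lay on 3.35% (2.73 to 4.06%) of SUDHL6 single-line islands in the lowest 25% by score, on 6.89% and 15.7% in the next classes, and on 26.6% (21.5 to 32.1%) of those in the highest 25%, 76 of 286. Overlapping SUDHL6 islands had HT H3K27me3 in 6.52% (4.34 to 9.35%) of the lowest 25% and 2.99% (2.41 to 3.66%) of the highest 25%. The HT single-line shares with SUDHL6 H3K27me3 were 2.36% (1.72 to 3.15%), 9.76%, 12.7% and 11.6% (5.72 to 20.3%, 10 of 86) from the lowest to the highest class. For overlapping HT islands they were 3.77% (2.52 to 5.41%) in the lowest and 1.93% (1.43 to 2.54%) in the highest. Single-line islands of high score were wide, with a median of 4800 bp in both lines outside the 2 Mb margins, and a wider island can meet more of another list. Overlapping islands of that score range and place had a median of 3150 bp in HT and 3300 bp in SUDHL6. The part of width in these shares was not tested.

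**Figure D5:**
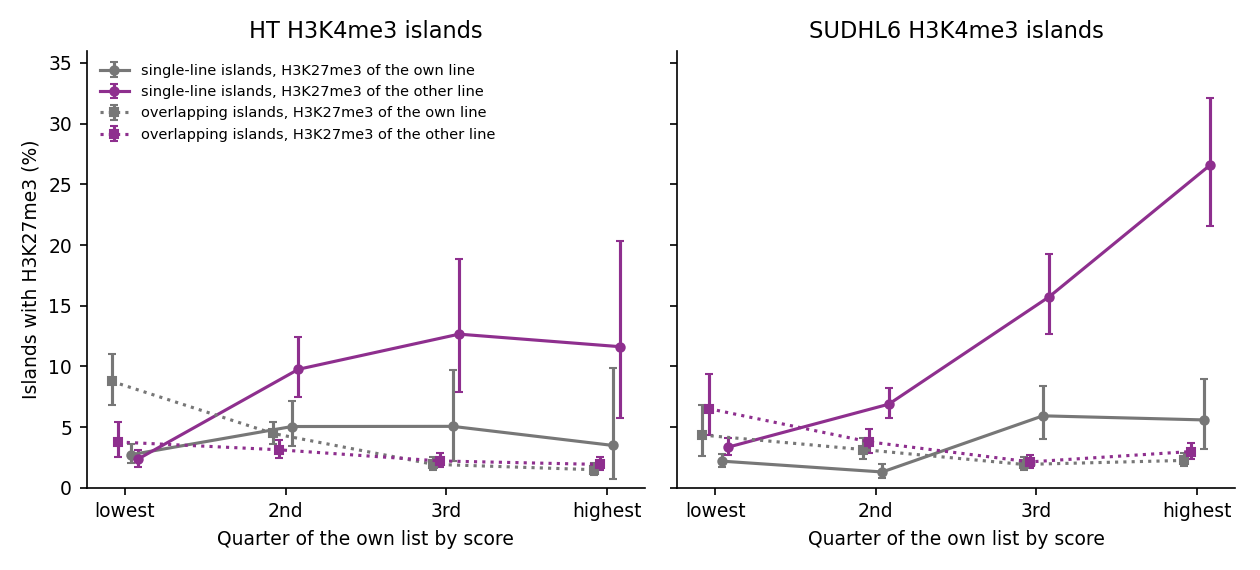
Share of H3K4me3 islands that overlap an H3K27me3 island of the own line or of the other line (y axis, percent, with exact 95% intervals) by 25% class of score (x axis, lowest to highest), for single-line and overlapping islands of HT and SUDHL6. For H3K27me3 of the other line, single-line SUDHL6 islands rise from 3.35% to 26.6% with score, whereas overlapping SUDHL6 islands end at 2.99%.

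EZH2 of HT followed a different pattern. It lay on 9.43% (8.79 to 10.1%) of paired and 4.81% (4.03 to 5.68%) of single-line HT islands. HT EZH2 also lay on 5.12% (4.54 to 5.74%) of SUDHL6 single-line islands, where HT had no H3K4me3 island, and on 9.48% (8.84 to 10.2%) of paired SUDHL6 islands. Among SUDHL6 islands in the highest 25% by score the order turned. There HT EZH2 lay on 24.1% (19.3 to 29.5%) of single-line islands, against 361 of 3012 overlapping islands (95% interval 10.8 to 13.2%). SUDHL6 EZH2 lay on 1.48% (1.17 to 1.84%) of SUDHL6 single-line and 2.27% (1.95 to 2.63%) of paired islands, from a shorter list. In the highest 25% by score it lay on 4.20% (2.19 to 7.21%) of single-line and 2.26% (1.76 to 2.85%) of overlapping SUDHL6 islands.

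Some loci had H3K4me3 in 1 line and H3K27me3 in the other over most of the same bases. Single-line islands with at least 50% of their length under H3K27me3 of the other line, and none of their own line, numbered 244 of 5414 in SUDHL6 and 59 of 2704 in HT. In the highest 25% of the list by score they were 47 of 286 single-line islands in SUDHL6 and 4 of 86 in HT. The H3K27me3 list of HT was also longer, with 16851 islands against 13117 in SUDHL6. A SUDHL6 example lay on chromosome 13 from 46956001 to 46965600. It was 9.6 kb wide with a score of 373 and lay 160.35 kb from HT H3K4me3, and an HT H3K27me3 island from 46956751 to 46964700 covered 82.8% of it, with HT EZH2 over 45.3%. Another, on chromosome 7 from 69061351 to 69066300, was 4.95 kb wide with a score of 266 and lay 2292 kb from the nearest HT H3K4me3. HT H3K27me3 covered 84.8% of it and HT EZH2 87.9%. In the opposite direction, an HT island on chromosome 7 from 30027901 to 30030000 had SUDHL6 H3K27me3 over 92.9% and SUDHL6 EZH2 over 100% of its length, with a score of 113 (percentile 79.1). Among the 5 such HT islands of highest score, SUDHL6 EZH2 also covered 100% of the island on chromosome 19. It covered 0% of those on chromosomes 1, 11 and 17, and HT EZH2 covered 100% of that on chromosome 1.

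At paired islands, H3K27me3 in HT alone went with a lower H3K4me3 rank in HT. At the 196 pairs with H3K27me3 in HT alone, the median percentile of score per kb was 18.3 in HT and 30.4 in SUDHL6. SUDHL6 ranked higher in 138 of them and HT in 58, with a median difference of -8.09 points. By 25 points or more, SUDHL6 was higher in 26.5% and HT in 10.2%, against 20.7% and 21.0% of all pairs. At the 145 pairs with H3K27me3 in SUDHL6 alone, HT ranked higher in 76 and SUDHL6 in 69, with a median difference of 1.46 points, so the ranks were nearly balanced there. Whether these classes of pairs differ was not tested. Where both lines had H3K27me3 (45 pairs), both median percentiles were low, at 26.9 in HT and 25.5 in SUDHL6. At pairs with H3K27me3 in neither line they were 51.3 and 51.0.

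H3K4me3 was the antibody whose islands were most alike in the lines, in position and in rank. The same pairing gave 3255 H3K27me3 pairs and 284 EZH2 pairs. The Spearman correlation of score per kb across pairs was 0.17 for H3K27me3 and 0.21 for EZH2, against 0.39 for H3K4me3. One island was 2 or more times as wide as the other in 43.1% of H3K27me3 pairs and 32.7% of EZH2 pairs, against 21.5% of H3K4me3 pairs. The shared part of the combined length had a median of 39.5% for H3K27me3, 51.7% for EZH2 and 60% for H3K4me3. Each antibody had 1 library a line, and the names of the H3K27me3 lists show a different normalization tag, so the part of the processing in these differences was not tested.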

How the data were processed

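ChIP-seq islands of H3K4me3, H3K27me3 and EZH2 in HT and SUDHL6 were used, with 1 deposited list for each library, so replicates were not pooled. The input samples were not used. SICER and hg19 are named, per the submitters' processing notes, and the deposited names show an FDR of 1E-7, windows of 150 bp and gaps of 450 bp. The aligner, the read filters, the control and the depth are not given in the sources used here. Each island's deposited score is the authors' own value, and what it counts is unknown. Depth can change how many islands are called and how wide they are, and its part in the differences was not tested. Starts count from 1 and ends are inclusive.

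Overlap needed 1 bp. Pairs were mutual best partners by shared bases. Percentiles were taken within a list or among pairs. Differences of 25 percentile points or 2-fold in width were counted as called, with no p-values. The steps were checked on simulated islands with known partners. Regions were named by rank: the 5 leading pairs by rank difference (both islands 1 kb or wider), width ratio and summed percentile, and the 5 leading single-line islands by score, width and distance. The text gives some of them, and other named regions were chosen after their values were seen. The members and lists were chosen with earlier results of these data known. Alternatives covered the overlap rule, the score cut, width, joining and equal list length. Comparisons with gene starts and gene lists need hg19 gene positions and were not run. Python 3.11.15, numpy 2.4.6, pandas 2.3.3, scipy 1.17.1 and matplotlib 3.10.9 were used.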

Additional observations from a re-analysis of the deposited data

How the results depend on the processing

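Over 22 results, 39 of 80 alternative values lay within the 95% interval of the reported value and 41 outside it. No paired analysis was possible because each line and antibody had 1 library, and for the same reason no replicate could be left out. The share of HT islands overlapping SUDHL6 was 66.4% with an overlap of 50% of the island, 83.5% with the 50% highest scores of both lists, 72.7% for islands of at least 1 kb, 71.7% with equal list lengths and 75.8% with islands within 5 kb joined. The SUDHL6 shares were 51.8%, 66.7%, 58.2%, 71.4% and 61.0% in the same order. Chosen after the data were seen, the whole list against the other line's 50% highest scores gave 56.0% (HT) and 38.4% (SUDHL6), and the 50% highest scores against the other whole list 95.4% and 88.3%.

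Pairs differing by 25 points were 10.3% (HT higher) and 23.3% (SUDHL6 higher) with whole-list percentiles, and 14.4% and 14.7% by whole-island score. Islands 2 or more times as wide were 7.80% (HT) and 9.20% (SUDHL6) where both were at least 1 kb. Without the 9 segments, added after the data were seen, SUDHL6 had 19.04% of pairs by rank and 9.09% by width.

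The share of single-line islands in the highest 25% was 4.73% (HT) and 3.99% (SUDHL6) by score per kb, which turned the order of the lines. It was 10.4% and 12.1% where islands under 50% covered counted as single-line. In SUDHL6 it was 5.99% for islands of at least 1 kb and 4.56% away from the longest empty stretches (added after the data were seen). Those within 10 kb were 17.3% (HT) and 10.4% (SUDHL6) between centres, and 17.6% and 14.5% at equal list length. At that length (added after the data were seen) 52.2% and 42.3% stood alone and 9.05% and 12.6% were in runs of 5 or more.

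With 50% of the island covered, H3K27me3 of the own and other line lay on 2.29% and 2.92% of single-line HT islands and on 1.22% and 5.39% of those of SUDHL6, and HT EZH2 on 4.41% of the latter. Unknown depth limits every count of missing islands.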
